A study of Mus musculus with 8 samples.

Results

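Protein phosphatase 2A (PP2A) removes phosphate from serine and threonine residues, and its transcripts are described here in mouse embryonic fibroblasts (MEFs) with and without SLMAP3. The genes were taken by name from the table of estimated counts as the scaffold, catalytic and regulatory subunits of PP2A other than the striatins, which gave 10 of the 55401 genes listed. They are the scaffold genes Ppp2r1a and Ppp2r1b, the catalytic genes Ppp2ca and Ppp2cb, and the regulatory genes Ppp2r2a, Ppp2r2d, Ppp2r3a, Ppp2r5a, Ppp2r5c and Ppp2r5e. Each name matched a single row.

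RNA was sequenced from 4 SLMAP3-/- and 4 WT lines of MEFs, with 1 library per line and each line from a different B6C3F1 embryo at E14.5. The knockout comes from mice with a floxed exon 3 of Slmap that was deleted by Cre under the CMV promoter, which is active in many tissues from early development, so the deletion is not limited to a cell type. All 8 lines, WT included, had been immortalized with the SV40 large T antigen. Head and organs were removed before the cells were isolated, so a line began as a mixed culture from the remaining body. Whether it was still mixed after immortalization was not tested. Bulk RNA cannot tell fewer cells of a kind from less RNA per cell.

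PP2A works mainly as a trimer. A scaffold (A) subunit made of repeated helices holds a catalytic (C) subunit, and a regulatory (B) subunit joins them and sets where the enzyme goes and what it dephosphorylates. Mammals have a pair of A genes, a pair of C genes and several families of B genes, among them B55 (the Ppp2r2 genes), B56 (the Ppp2r5 genes), the calcium-binding PR72 family (the Ppp2r3 genes) and the striatins. SLMAP3 belongs to STRIPAK, a complex in which striatins tie PP2A to kinases of the Hippo pathway.

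Slmap, the targeted gene, was measured first as a check of the labels. Its level was 44.3, 32.7, 36.3 and 39.7 CPM (counts scaled to the depth of each library, with TMM factors between lines) in SLMAP3-/- replicates 1 to 4 and 124, 139, 143 and 141 CPM in WT replicates 1 to 4. All SLMAP3-/- lines were under all WT lines, and the log2 fold change was -1.84 (SE 0.11, n = 4 per genotype, edgeR adjusted p = 0.00119). Totals ran from 50952494 to 59854680 estimated counts in SLMAP3-/- lines and from 49879059 to 63322486 in WT lines. All 9 fibroblast markers examined were among the tested genes, with Col1a1 between 4508 and 7010 CPM, and Lum at 0.113 to 18.5 CPM. Of 13 markers of other cell types, the endothelial Kdr was at 7.87 to 28.4 CPM, the neural Tubb3 at 8.90 to 22.2, the blood marker Cd68 at 1.91 to 4.70 and the epithelial Krt18 at 0.484 to 3.72. The other markers of these types stayed at or below 1.00 CPM (Pecam1, Cdh5, Sox10 and Ptprc at or below 0.227), and the muscle marker Myod1 was at 0 in every line.

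None of the 10 PP2A genes passed the test for a difference between SLMAP3-/- and WT MEFs. All 10 passed the filter on low counts, 0 had an adjusted p under 0.05 (quasi-likelihood test of edgeR, adjusted over 15461 genes by Benjamini-Hochberg), and 0 had an unadjusted p under 0.05. Over the whole table, 0.00647% of the tested genes were called, which is Slmap alone, and 1.81% had an unadjusted p under 0.05. For every PP2A gene the ranges of the genotypes overlapped, against 1.25% of tested genes without overlap. DESeq2, which called 11 genes or 0.0325% of those it tested, also called 0 of the 10, with a lowest unadjusted p of 0.494, and limma-voom called 0 with a lowest unadjusted p of 0.428. Of the 10 log2 fold changes, 4 were above 0 and 6 below, with a median of -0.02 beside 0.00 over all tested genes. The 95% interval of the fold change was widest for Ppp2r5c, at 0.753 to 1.19 times the WT level, and narrowest for Ppp2r3a, at 0.857 to 1.14 times.

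**Figure D1:**
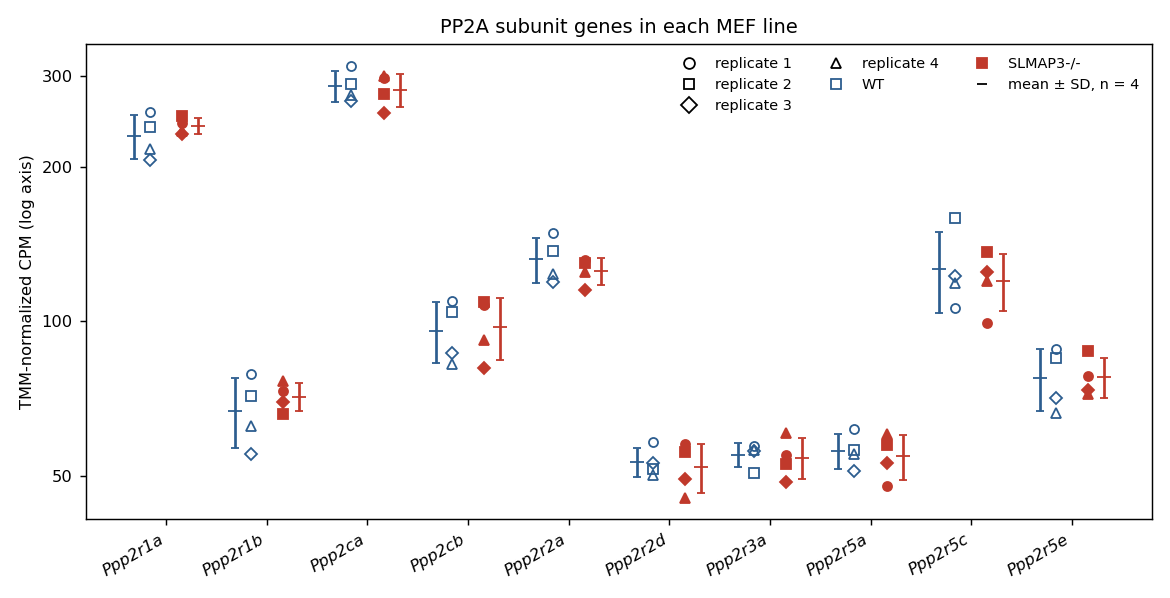
TMM-normalized CPM (log axis) of the 10 PP2A genes in each line, with WT in open blue and SLMAP3-/- in filled red symbols, the symbol shape giving the replicate, and the mean ± SD of 4 lines beside each set of points. The red and blue points overlap for every gene, for Ppp2ca between 269 and 300.1 CPM.

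The scaffold gene Ppp2r1a (ENSMUSG00000007564.15, GRCm38 chr17:20945311-20965916, plus strand) encodes the A-alpha subunit, the scaffold of most PP2A in mammalian cells. Its level was 243, 251, 232 and 235 CPM in SLMAP3-/- replicates 1 to 4 and 256, 239, 206 and 217 CPM in WT replicates 1 to 4. The SLMAP3-/- lines lay inside the range of the WT lines. The means were 240 ± 8.78 CPM (SD, n = 4) and 229 ± 22.5 CPM, which gave a log2 fold change of 0.07 (SE 0.09, 95% interval -0.14 to 0.28, edgeR adjusted p = 1.00, exact permutation p = 0.371).

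Ppp2r1b (ENSMUSG00000032058.14, chr9:50845301-50894229, plus strand) encodes the other scaffold, A-beta. Its level was 73.3, 66.0, 69.8 and 76.4 CPM in SLMAP3-/- replicates 1 to 4 and 78.9, 71.7, 55.1 and 62.5 CPM in WT replicates 1 to 4. The WT lines held both the highest and the lowest value. The log2 fold change was 0.09 (SE 0.12, 95% interval -0.18 to 0.36, edgeR adjusted p = 1.00, exact permutation p = 0.486), the largest in size of the 10, and without WT replicate 1 or WT replicate 3 it was 0.18 or 0.01. Exons of Ppp2r1b overlap the span of the gene Sik2 on the opposite strand. Exons of Ppp2ca, Ppp2r3a and Ppp2r5c overlap the spans of non-coding genes likewise. Whether they reach exons of those genes was not examined. The microRNA gene Mir3061 overlaps an exon of Ppp2ca on the same strand. The library kit keeps the strand, but whether the counting used it is not given in the sources used here.

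Levels of different genes were compared per length, as CPM per kilobase of the mean annotated protein-coding transcript. On that scale Ppp2r1a stood at 165 ± 11.9 (SD, n = 8) and Ppp2r1b at 29.0 ± 3.26 CPM per kilobase. Ppp2r1a thus made up 85.1% ± 0.898 of scaffold transcripts, from 83.8% to 86.5% over the 8 lines, and was the higher of the pair in 8 of 8 lines. The log2 ratio of Ppp2r1a to Ppp2r1b in CPM was 1.75 ± 0.13 in SLMAP3-/- and 1.78 ± 0.09 in WT lines, a difference smaller than the spread within either genotype.

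The coding sequences of the scaffold genes are 76.16% identical over 1770 aligned bases, and their longest run without a difference is 23 bases. No stretch of 31 bases, a usual word length for matching reads to transcripts, is shared by any of the 10 genes, so reads can be told apart where they cover a difference. Over the whole alignment 422 of the 1770 bases differ. The stretch of exon 13 below was chosen around the run of 23 bases, so it does not stand for that density. It is coding in both genes (chr17:20962632-20962706 and chr9:50878756-50878830 of GRCm38, plus strand), and capitals mark the 14 of 75 bases that differ.
Ppp2r1a: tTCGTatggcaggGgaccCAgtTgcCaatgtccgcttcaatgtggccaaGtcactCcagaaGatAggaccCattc
Ppp2r1b: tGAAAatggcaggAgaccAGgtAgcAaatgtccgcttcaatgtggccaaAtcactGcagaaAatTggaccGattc

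The catalytic gene Ppp2ca (ENSMUSG00000020349.4, chr11:52098681-52127778, plus strand) encodes C-alpha, the main catalytic subunit studied in mice. Its level was 298, 277, 255 and 300.1 CPM in SLMAP3-/- replicates 1 to 4 and 315, 290, 269 and 275 CPM in WT replicates 1 to 4. SLMAP3-/- replicate 3 was lowest and WT replicate 1 highest, and the other lines of the genotypes were interleaved. The means of 282 ± 21.1 and 287 ± 20.4 CPM (SD, n = 4 each) gave a log2 fold change of -0.02 (SE 0.09, 95% interval -0.24 to 0.19, edgeR adjusted p = 1.00, exact permutation p = 0.743).

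Ppp2cb (ENSMUSG00000009630.10, chr8:33599625-33619441, plus strand) encodes C-beta, a nearly identical enzyme. Its level was 108, 109, 81.1 and 91.8 CPM in SLMAP3-/- replicates 1 to 4 and 109, 104, 86.9 and 82.7 CPM in WT replicates 1 to 4. In both genotypes replicates 1 and 2 were above replicates 3 and 4. The log2 fold change was 0.02 (SE 0.13, 95% interval -0.28 to 0.33, edgeR adjusted p = 1.00, exact permutation p = 0.829).

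The log2 ratio of Ppp2ca to Ppp2cb in CPM was 1.54 ± 0.17 in SLMAP3-/- and 1.59 ± 0.12 in WT lines (SD, n = 4 each), and the genotypes overlapped. In CPM the ratio ran from 2.54 to 3.27 and from 2.78 to 3.33. Per length the order of the catalytic genes turned on the length used. With the only coding transcript annotated for each gene, 7102 bases for Ppp2ca and 1469 for Ppp2cb, Ppp2ca made up 38.0% ± 2.22 of catalytic transcripts and Ppp2cb was higher in 8 of 8 lines. With the median length of all annotated transcripts of each gene Ppp2ca made up 53.1% and Ppp2cb was higher in 1 of 8 lines. Which catalytic transcript was the more abundant was therefore not settled by these counts.

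The coding sequences of Ppp2ca and Ppp2cb are both 930 bases long with the stop codon, are cut into 7 exons of the same coding lengths, and are 81.72% identical. Of the 170 differing bases, 143 (84.1%) fall on the third position of a codon, 21 on the first and 6 on the second. The last coding exon is shown because it holds the tail of the enzyme, whose last residues carry the sites of methylation and phosphorylation that steer assembly with B subunits. Capitals mark bases that differ between the genes, 11 of 73 in exon 7, which lies at chr11:52121902-52121974 and chr8:33619122-33619194 (GRCm38, coding part, plus strand).
Ppp2ca exon 7: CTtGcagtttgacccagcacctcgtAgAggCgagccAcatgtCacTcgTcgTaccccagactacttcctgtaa
Ppp2cb exon 7: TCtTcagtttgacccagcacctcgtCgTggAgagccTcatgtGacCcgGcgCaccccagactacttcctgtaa

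Of the B55 genes, Ppp2r2a (ENSMUSG00000022052.9, chr14:67014056-67072444, minus strand) encodes B55-alpha, known for its part in the exit from mitosis. Its level was 132, 130, 115 and 125 CPM in SLMAP3-/- replicates 1 to 4 and 148.5, 137, 119 and 124 CPM in WT replicates 1 to 4. WT replicate 1 was highest and SLMAP3-/- replicate 3 lowest. The log2 fold change of -0.08 (SE 0.09, 95% interval -0.29 to 0.14) had the lowest unadjusted p of the 10, at 0.435 (edgeR, adjusted p = 1.00).

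Ppp2r2d (ENSMUSG00000041769.13, chr7:138846079-138883057, plus strand) encodes B55-delta, which is also held in check at mitosis by the inhibitors Ensa and Arpp19. Its level was 57.8, 55.7, 49.4 and 45.4 CPM in SLMAP3-/- replicates 1 to 4 and 58.1, 51.6, 52.9 and 50.3 CPM in WT replicates 1 to 4. The SLMAP3-/- lines spanned a wider range that took in most of the WT lines. The log2 fold change was -0.03 (SE 0.10, 95% interval -0.26 to 0.19, edgeR adjusted p = 1.00). Exon sequence of Ppp2r2d overlaps the span of Mapk1ip1 on the opposite strand.

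Ppp2r3a (ENSMUSG00000043154.15, chr9:101105084-101251795, minus strand) encodes the calcium-binding subunits PR72 and PR130. Its level was 54.8, 52.8, 48.7 and 60.7 CPM in SLMAP3-/- replicates 1 to 4 and 57.2, 50.7, 56.0 and 56.3 CPM in WT replicates 1 to 4. Both the highest and the lowest line were SLMAP3-/-. The log2 fold change was -0.02 with the smallest SE of the 10, at 0.09 (95% interval -0.22 to 0.18, edgeR adjusted p = 1.00).

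The 3 B56 genes examined here encode subunits that bind short LxxIxE motifs in their partners and act at centromeres, in Wnt signalling and on growth factor pathways. Ppp2r5a (B56-alpha, ENSMUSG00000026626.11, chr1:191351975-191403272, minus strand) was at 47.8, 57.4, 53.1 and 60.4 CPM in SLMAP3-/- replicates 1 to 4 and at 61.7, 56.1, 51.2 and 55.1 CPM in WT replicates 1 to 4. Here replicate 1 was the lowest line of SLMAP3-/- and the highest of WT. The log2 fold change was -0.04 (SE 0.10, 95% interval -0.26 to 0.19, edgeR adjusted p = 1.00).

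Ppp2r5c (B56-gamma, ENSMUSG00000017843.14, chr12:110447120-110583062, plus strand) varied the most among lines. Its level was 99.3, 136, 125 and 120 CPM in SLMAP3-/- replicates 1 to 4 and 106, 159, 122 and 119 CPM in WT replicates 1 to 4. In both genotypes replicate 1 was lowest and replicate 2 highest, although same-numbered lines share no embryo. The coefficient of variation within genotypes (SD pooled over the genotypes, divided by the mean of the 8 lines) was 15.7%. The log2 fold change was -0.08 (SE 0.15, 95% interval -0.41 to 0.26, edgeR adjusted p = 1.00).

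Ppp2r5e (B56-epsilon, ENSMUSG00000021051.10, chr12:75450881-75596245, minus strand) was at 78.3, 87.6, 73.4 and 72.2 CPM in SLMAP3-/- replicates 1 to 4 and at 88.5, 85.0, 71.0 and 66.3 CPM in WT replicates 1 to 4. The SLMAP3-/- lines lay inside the WT range. It had the smallest difference of the 10, with a log2 fold change of 0.00 (SE 0.12, 95% interval -0.26 to 0.27, edgeR adjusted p = 1.00).

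**Figure D2:**
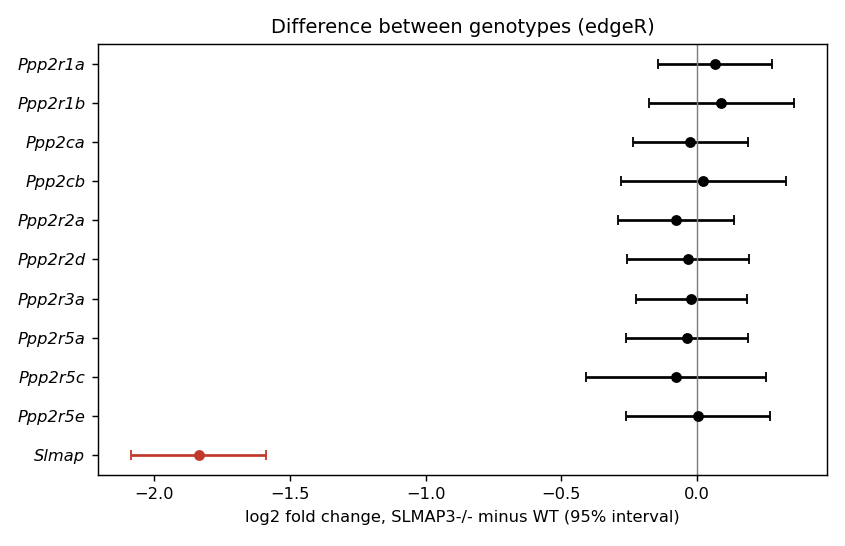
log2 fold change of SLMAP3-/- against WT for each PP2A gene (black) and for Slmap (red), with points for the edgeR estimate and bars for its 95% interval. All 10 PP2A intervals cross 0 and lie between -0.41 and 0.36, and the Slmap interval lies between -2.09 and -1.59.

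The 6 B genes held different shares of the regulatory pool. Per length, over 15 genes that encode B subunits (these 6, 6 further B genes and the 3 striatins), they summed to 47.9% ± 1.80 (SD, n = 8), with 45.0% to 49.6% in SLMAP3-/- and 47.6% to 49.6% in WT lines. Ppp2r5c held 14.9% ± 1.96 and Ppp2r2a 11.3% ± 0.663. Ppp2r5c was the higher of this pair in 7 of 8 lines, although their ranges overlapped.

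Ppp2r5e held 7.46% ± 0.601 and Ppp2r2d 6.91% ± 0.580 of the regulatory pool, and with Ppp2r5e the higher in 5 of 8 lines this pair was not separated beyond its spread. Ppp2r5a held 4.72% ± 0.365 and Ppp2r3a 2.56% ± 0.200. Each of these lay below its upper neighbour in 8 of 8 lines without overlap of the ranges. With the longest coding transcript as length, Ppp2r5c and Ppp2r2a came to 10.1% and 10.8%. Ppp2r5e at 5.44% was then below Ppp2r2d at 8.52% in 8 of 8 lines. With the median of all transcripts the order was Ppp2r5a 10.3%, Ppp2r2d 9.69%, Ppp2r2a 8.95%, Ppp2r5c 8.66%, Ppp2r5e 6.23% and Ppp2r3a 3.24%. Ppp2r5a was then above Ppp2r2d in 6 of 8 lines. The order of the 6 thus depends on the annotation, and only Ppp2r3a kept its place, the lowest, with each length used.

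Summed over their genes with the mean coding length, the scaffolds came to 194 ± 14.6 CPM per kilobase, the catalytic genes to 106 ± 10.4 and the 15 regulatory genes to 380 ± 17.9 (SD, n = 8). That length is 1420 bases for Ppp2r1a, beside 2410 for its longest coding transcript and 650 for the median of all its transcripts. Sums with other lengths were not computed, so the classes cannot be ranked from these values. Scaffold sums were 199 ± 5.34 in SLMAP3-/- and 190 ± 20.2 in WT lines, catalytic sums 106 ± 11.0 and 106 ± 11.5, and regulatory sums 378 ± 17.2 and 381 ± 21.2. Each difference between the genotypes was smaller than the larger SD of the pair.

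**Figure D3:**
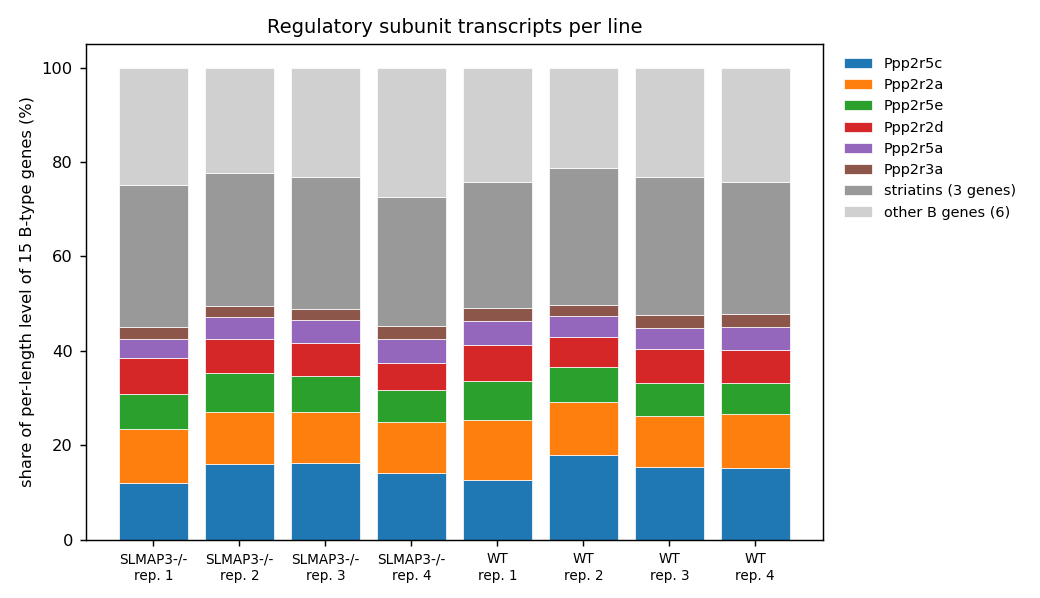
Share of the per-length level of 15 regulatory (B) subunit genes in each line, in percent, with the 6 B genes described here in colour, the 3 striatins in dark grey and 6 further B genes in light grey. Ppp2r5c and Ppp2r2a are the widest coloured bands, at 14.9% and 11.3% on average, and the coloured bands end between 45.0% and 49.6% in every line.

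The PP2A genes varied little from line to line. Their coefficients of variation within genotypes ran from 7.28% (Ppp2r1a) to 15.7% (Ppp2r5c), with a median of 8.94%. The same median was 19.1% over all tested genes and 12.2% over the 3944 tested genes with a mean CPM in the range of the 10. Their median SE of the log2 fold change was 0.10, beside 0.20 over all tested genes and 0.12 over the 3944 in that CPM range. Several of the 10 had their extreme value in the same line. WT replicate 1 was the highest of the 8 lines for 8 of the 10 genes, all but Ppp2r3a and Ppp2r5c, and SLMAP3-/- replicate 3 was the lowest for 4. How often these lines were highest or lowest among all tested genes was not counted, so whether this is particular to the 10 is not known.

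Relative to the mean of each gene over the lines, the median log2 deviation of the 10 was 0.05, 0.07, -0.08 and -0.01 in SLMAP3-/- replicates 1 to 4 and 0.15, 0.04, -0.11 and -0.06 in WT replicates 1 to 4. The high and low lines were thus found in both genotypes. Over all tested genes the same medians stayed between -0.01 and 0.02, but scaling with TMM factors holds such medians near 0. They cannot show whether the pattern is particular to the 10, and genes of similar level were not examined for it. The lines where the 10 were lowest, SLMAP3-/- replicate 3 and WT replicates 3 and 4, also had the most genes with 10 or more counts, at 15881, 15689 and 15677, against 14885 to 15262 in the other 5. The part of this in the levels of the PP2A genes was not tested.

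**Figure D4:**
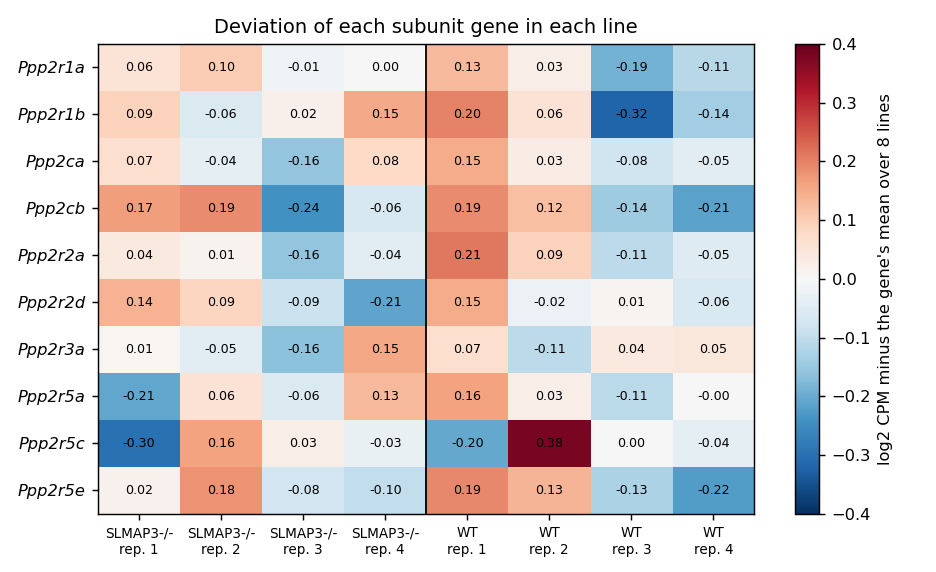
Deviation of each PP2A gene in each line from its mean over 8 lines, on the log2 CPM scale, with the value printed in each cell, red for above and blue for below the mean, and a vertical line between SLMAP3-/- (left) and WT (right). WT replicate 1 is red for 9 of 10 genes, and the largest single deviation is 0.38, for Ppp2r5c in WT replicate 2.

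Transcribed copies of these genes elsewhere in the genome took few counts. In GENCODE M21, 18.7% of the 31-base words in Ppp2r5a transcripts and 11.0% of those in Ppp2r2a transcripts also occur in transcripts of other genes, against at most 3.57% for the other 8. Words of the coding sequences recur in 11 processed pseudogenes of Ppp2r1a, Ppp2r2a, Ppp2r2d and Ppp2r5a, whose highest estimated count in any line was 10. Beside at least 2367 counts per line for each of the 10 genes, adding those of Ppp2r1a changed the difference in its log2 ratio to Ppp2r1b between genotypes by less than the 2 decimals given here, and Ppp2ca and Ppp2cb have no such copy.

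Promoter windows of 250 bases before and 50 after the RefSeq transcription start (GRCm38.p6) were available here for 7 of the 10 genes. The set of windows used held none for Ppp2cb, Ppp2r2a and Ppp2r5e. Each was searched on both strands for 4 short motifs. The GC box GGGCGG was found in 6 of the 7 and in a window of 38.2% of the 27025 genes with 1 or more windows, CCAAT in 5 and in 41.1%, and TATAAA in 0 and in 15.7%. The cyclic AMP response element TGACGTCA, a palindrome, was found in Ppp2ca and Ppp2r2d and in 2.03% of all genes with a window. It stood 26 to 19 bases before the start of Ppp2ca (chr11:52098788-52098815 for the stretch below) and 21 to 14 before that of Ppp2r2d (chr7:138846328-138846355), in capitals here. GENCODE M21 places the starts of both genes further upstream, so that both stretches lie inside its gene spans.
Ppp2ca: gacgctggcgTGACGTCAccacgccggg
Ppp2r2d: cggagggggaTGACGTCAtccggcgggg

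The wider PP2A pathway was examined through 24 further genes in 5 lists. Of these, 22 passed the filter on low counts, and 0 had an adjusted p or an unadjusted p under 0.05 in edgeR, beside the 0.00647% and 1.81% of all tested genes. The genotypes did not overlap for 1 of the 22, beside 1.25% of all tested genes. DESeq2 and limma-voom also called 0 of them. Their log2 fold changes lay between -0.19 and 0.14.

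Among the other B subunits, 4 of 6 were tested. Ppp2r2b and Ppp2r2c, B55 genes known mainly from brain, had 0 to 6 and 6 to 16 estimated counts per line and did not pass the filter, so that of the B55 genes only Ppp2r2a and Ppp2r2d could be compared here. Ppp2r5d, another B56 gene, stood at 59.8 ± 6.63 CPM per kilobase (SD, n = 8), or 15.7% of the pool, beside 56.7 ± 8.41 for Ppp2r5c, which was the higher of the pair in 4 of 8 lines. With the longest coding transcript as length Ppp2r5d held 19.7%, the highest of the pool, beside 10.1% for Ppp2r5c. With the median of all transcripts as length Ppp2r5d held 10.9%, below Strn4 at 17.1% and Ppp2r5b at 12.3%. Its log2 fold change was 0.11 (SE 0.11, edgeR adjusted p = 1.00), and that of Ppp2r5b was 0.02 (SE 0.11).

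The striatins, the B subunits through which STRIPAK holds PP2A, were all tested. Strn3 held 11.5% ± 1.14 and Strn4 11.3% ± 0.637 of the regulatory pool with the mean coding length, beside 11.3% for Ppp2r2a. These shares depend on the annotation, since Strn3 held 14.1% with the longest coding transcript and 5.78% with the median of all transcripts, and Strn4 10.3% and 17.1%. Strn3 and Strn4 had log2 fold changes of -0.08 (SE 0.14) and 0.09 (SE 0.07, exact permutation p = 0.0857). Their lines overlapped between genotypes.

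Of the 5 genes for assembly, methylation and activation, Ptpa, the activator that helps load the metal ions of the active site, and Ppme1, the methylesterase that removes the tail methyl group, were highest per length. Their log2 fold changes were -0.04 (SE 0.09) and -0.09 (SE 0.08). In this list 1 of 5 log2 fold changes was above 0 and the median was -0.05.

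Among the 8 inhibitors and their kinase, Set and Anp32a, which encode nuclear proteins known to inhibit PP2A, were highest per length. Set varied widely, at 530, 589, 475 and 644 CPM in SLMAP3-/- replicates 1 to 4 and 725, 609, 454 and 423 CPM in WT replicates 1 to 4, with a log2 fold change of 0.02 (SE 0.19). Anp32a was at 129, 123, 136.06 and 129.9 CPM in SLMAP3-/- replicates 1 to 4 and 168, 144, 138 and 136.09 CPM in WT replicates 1 to 4. It was the only one of the 22 tested list genes whose genotypes did not overlap, with 136.06 CPM in the highest SLMAP3-/- and 136.09 CPM in the lowest WT line, and its log2 fold change of -0.18 (SE 0.09, 95% interval -0.38 to 0.03) did not pass the edgeR test (unadjusted p = 0.0803, adjusted p = 1.00). Its exact permutation p was 0.0286, the smallest that 4 against 4 lines allow, and 1.00 after adjustment over all tested genes.

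The PP2A-like catalytic genes Ppp4c and Ppp6c, which encode the catalytic subunits of the related phosphatases PP4 and PP6, had log2 fold changes of 0.06 (SE 0.09) and -0.02 (SE 0.09).

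**Figure D5:**
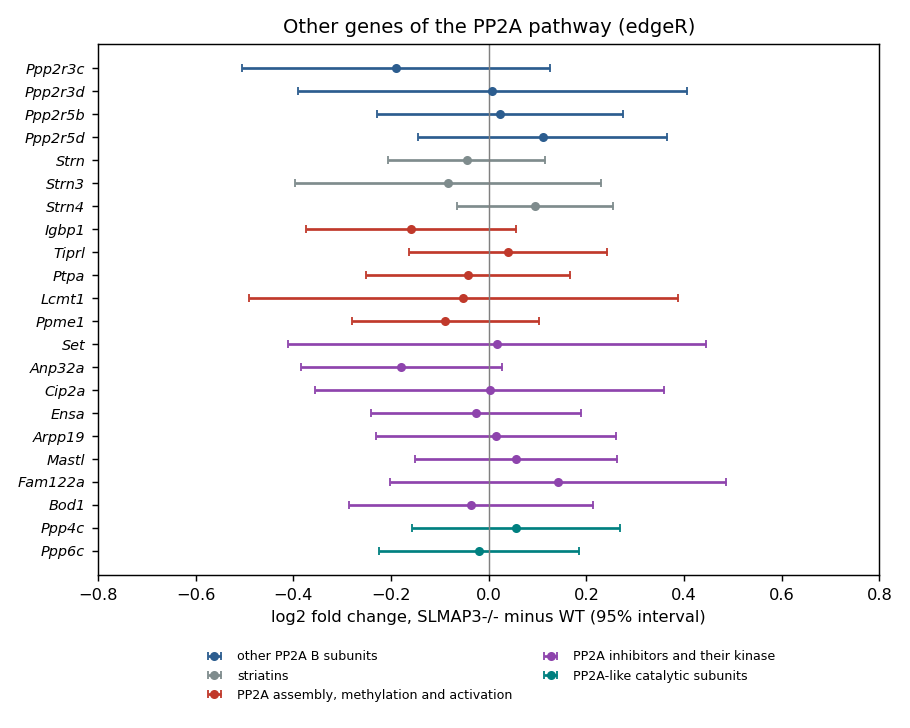
log2 fold change of SLMAP3-/- against WT for the 22 tested genes of the 5 PP2A pathway lists, coloured by list, with points for the edgeR estimate and bars for its 95% interval. All 22 intervals cross 0, that of Anp32a by the least, with an upper end of 0.03.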

How the data were processed

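The authors assigned reads of 8 stranded mRNA libraries to the GENCODE M25 transcriptome (GRCm38) with Salmon and deposited an estimated count per gene and line, adjusted to transcript length but without normalization across libraries. Software versions are not given in the sources used here. The authors' own comparison (mean, log2 fold change, SE and p-values from DESeq2) was not used, and 0 sample columns were left out.

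Estimated counts were rounded and tested in R 4.3.3 with edgeR 4.0.16 (filterByExpr with a minimum count of 10, TMM, glmQLFit and glmQLFTest, genotype without covariates, Benjamini-Hochberg over 15461 genes, threshold 0.05). SEs and 95% intervals come from the F statistic and its degrees of freedom. DESeq2 1.42.0, limma 3.58.1 (voom) and the settings named in the closing section were alternatives. The edgeR, DESeq2 and voom fits were tested on simulated data with much larger changes than those of the PP2A genes. That test does not show the power to find differences as small as theirs. Exact permutation tests are two-sided, on log2 CPM with a prior count of 2.

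Lengths, exons and shared 31-base words come from GENCODE M21 (GRCm38), another release than the authors', and coding alignments were made with Biopython 1.88. Because counts were already scaled to average transcript lengths, per-length levels are approximate.

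The PP2A genes, the lists and the tests were chosen with earlier results of these data known. Named are the 10 genes, Slmap and, of each list, the 2 highest per length, any with an unadjusted p under 0.05, and any that did not pass the filter. Other genes named were chosen after their values were seen. Lines come from separate embryos.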

Additional observations from a re-analysis of the deposited data

Results flagged for a closer look

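In groups of 4 lines, a line was singled out where its gap to the nearest of the others, divided by the range of the group, passed Dixon's critical value for 4 samples. Of 66 groups (33 genes in 2 genotypes) 2 passed, and chance alone gives about 1 in 20 groups. None was a group of the 10 PP2A genes. The striatin gene Strn was lowest in SLMAP3-/- replicate 4, at 78.5 CPM against 86.0 to 87.5 CPM in the other 3 lines, with a ratio of 0.837. Bod1, which encodes an inhibitor of PP2A with B56 at kinetochores, was highest in WT replicate 2, at 60.3 CPM against 48.9 to 50.7 CPM in the other 3 lines, with a ratio of 0.840.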

How the results depend on the processing

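Other tools were DESeq2 and limma-voom, and edgeR was also run with size factors of DESeq2, robust empirical Bayes, unrounded counts, all genes above 0, a stricter minimum of 10 counts in all 8 lines, a replicate block, and without each line in turn. Under these 16 alternatives 0 PP2A genes and 0 of the pathway genes were called. Over the 160 values of the 10 genes the log2 fold change ran from -0.15 to 0.18, with a lowest unadjusted p of 0.133 and a lowest adjusted p of 0.967. The count of called genes was 11 with DESeq2 and 0 with the replicate block, and was 1 under the other alternatives, leaving out each line in turn and an adjusted p under 0.1 included. Labels number the lines 1 to 4 in both genotypes, but these replicate numbers gave no sign of pairing. Correlations were taken on deviations of log2 CPM from the mean of each gene in its genotype, not on the levels themselves. Those of same-numbered lines ran from -0.16 to 0.19, and 2 of 8 lines correlated best with their own number. The names MEF10A (SLMAP3-/- replicate 3) and MEF10B (WT replicate 4) share a number, whose meaning is not given in the sources used here. The correlation of these lines, on the same deviations, was 0.13, and a block by name was not tested. With the replicate number as a block the log2 fold change of Slmap was -1.84 with an adjusted p of 0.171, 294 genes had an unadjusted p under 0.05, and none was a PP2A gene.

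The signs of differences this close to 0 were not stable, and 19 of the 160 values changed sign. Ppp2r1a, Ppp2r1b and Ppp2r2a kept their sign throughout. Ppp2r5e was at -0.0034 with DESeq2 and -0.0021 with DESeq2's size factors in edgeR. Leaving out each line in turn gave log2 fold changes of -0.055 to 0.027 for Ppp2ca, -0.040 to 0.10 for Ppp2cb, -0.086 to 0.028 for Ppp2r2d, -0.079 to 0.029 for Ppp2r3a, -0.089 to 0.023 for Ppp2r5a, -0.15 to 0.052 for Ppp2r5c and -0.064 to 0.077 for Ppp2r5e. Among the pathway genes the same ranges were -0.070 to 0.070 for Ppp2r3d, -0.070 to 0.10 for Ppp2r5b, -0.14 to 0.027 for Strn3, -0.018 to 0.095 for Tiprl, -0.085 to 0.018 for Ptpa, -0.14 to 0.12 for Lcmt1, -0.092 to 0.18 for Set, -0.17 to 0.11 for Cip2a, -0.094 to 0.013 for Ensa, -0.037 to 0.079 for Arpp19, -0.091 to 0.037 for Bod1 and -0.067 to 0.034 for Ppp6c. Cip2a was also at -0.0030 with DESeq2, -0.024 with limma-voom, -0.0021 with DESeq2's size factors and -0.026 with the replicate block. The cause was not tested.

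Shares per length moved with the length used. With the longest coding transcript they were 83.7% for Ppp2r1a, 8.52% for Ppp2r2d, 6.04% for Ppp2r5a, 10.1% for Ppp2r5c and 5.44% for Ppp2r5e. With the median of all transcripts they were 90.9% for Ppp2r1a, 53.1% for Ppp2ca, 8.95% for Ppp2r2a, 9.69% for Ppp2r2d, 3.24% for Ppp2r3a, 10.3% for Ppp2r5a, 8.66% for Ppp2r5c and 6.23% for Ppp2r5e. These moves exceed the spread between lines, so the annotated length limits comparisons between genes. For the comparison of genotypes, with at least 2367 counts per line for each of the 10 genes, the spread between lines is the main limit.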
